A study of Mus musculus with 13 samples.

Results

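The genes described here encode the proteins that fuse synaptic and other secretory vesicles with their target membrane. They were chosen by name alone, without regard to their measured values: the numbered synaptotagmins (Syt), the syntaxins (Stx), the syntaxin-binding proteins (Stxbp), the VAMP and SNAP proteins, the Unc13 and Rims families and the complexins Cplx1, Cplx2 and Cplx4. This rule found 65 names among the 35468 gene names of the series, of which 56 were among the 15114 genes measured in dissociated neurons and 63 among the 32285 genes measured in brain sections. The rule also takes in Snap91, a clathrin adaptor that shares only its name with the SNAP proteins, and Vamp7-ps, which is named as a pseudogene. Stxbp3 appears as Stxbp3a in the neuron data.

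The neurons came from the retrosplenial cortex, a midline cortical area, of wild-type B6 mice. They were dissociated from acute slices dissected at an anterior, a medium and a posterior level, with cells pooled across slices. The 765 cells formed 1 labelled group of 11 samples from 3 animals (152, 304 and 309 cells). A further 2 libraries, called S4 and S8, were Visium profiles of 10 µm cryosections of flash-frozen wild-type brain stained for NeuN and DAPI, with 1022 and 951 spots, each spot covering a small area that can hold several cells. No group carried a treatment, and the ages of the animals are not given in the sources used here.

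In regulated release, a vesicle SNARE (VAMP) pairs with the plasma membrane SNAREs syntaxin and SNAP-25 into a bundle that draws the membranes together. Unc13 and Rims proteins prepare docked vesicles, syntaxin-binding proteins guide syntaxin into the bundle, complexins clamp and assist it, and synaptotagmins such as Syt1 and Syt2 bind calcium and trigger fusion. Several of these steps can be served by either of a pair of related genes, and cortical neuron types are known to differ in which of the pair they use.

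Promoters of 4 genes are shown because these genes, Cplx1, Cplx2, Rims3 and Stx1a, separate the neuron clusters below. Each sequence runs 5′ to 3′ from 250 bases before to 50 bases after the annotated start and was taken from RefSeq for build GRCm38.p6. Capitals mark the GC box GGGCGG on either strand.
Cplx1 promoter, chr5:108549978-108550277, minus strand: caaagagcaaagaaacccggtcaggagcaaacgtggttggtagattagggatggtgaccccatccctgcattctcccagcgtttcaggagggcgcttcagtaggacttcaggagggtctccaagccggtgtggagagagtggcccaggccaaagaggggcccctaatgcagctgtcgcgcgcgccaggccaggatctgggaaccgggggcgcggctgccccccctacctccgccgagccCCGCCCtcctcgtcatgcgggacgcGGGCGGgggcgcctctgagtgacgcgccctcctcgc
Cplx2 promoter, chr13:54302306-54302605, plus strand: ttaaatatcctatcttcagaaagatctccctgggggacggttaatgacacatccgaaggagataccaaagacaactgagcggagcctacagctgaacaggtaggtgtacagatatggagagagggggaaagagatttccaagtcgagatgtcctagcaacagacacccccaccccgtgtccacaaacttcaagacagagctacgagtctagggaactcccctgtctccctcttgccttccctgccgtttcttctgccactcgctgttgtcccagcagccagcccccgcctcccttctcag
Rims3 promoter, chr4:120854549-120854848, plus strand: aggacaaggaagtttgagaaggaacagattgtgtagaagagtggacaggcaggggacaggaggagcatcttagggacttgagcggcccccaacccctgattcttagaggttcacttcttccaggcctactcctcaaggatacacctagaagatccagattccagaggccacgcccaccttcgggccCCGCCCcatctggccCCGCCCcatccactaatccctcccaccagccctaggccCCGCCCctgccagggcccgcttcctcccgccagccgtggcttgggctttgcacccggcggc
Stx1a promoter, chr5:135023232-135023531, plus strand: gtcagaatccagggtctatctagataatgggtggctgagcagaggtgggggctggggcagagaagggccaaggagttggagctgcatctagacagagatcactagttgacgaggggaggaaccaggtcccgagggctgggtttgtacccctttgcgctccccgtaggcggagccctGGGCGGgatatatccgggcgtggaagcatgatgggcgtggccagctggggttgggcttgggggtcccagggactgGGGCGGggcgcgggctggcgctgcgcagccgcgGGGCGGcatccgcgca
The searched motifs were the GC box, the CCAAT box CCAAT, the cyclic AMP response element TGACGTCA and the TATA box TATAAA, on both strands. The GC box was found 2 times in the Cplx1 window, 3 times in the Rims3 window and 3 times in the Stx1a window, and 0 times in the Cplx2 window, which held none of the other 3 motifs either. Over the 58 promoters listed for 47 of the genes, 41 held a GC box (70.7%), against 35.7% of all 32851 promoters of the same length. A CCAAT box was in 19 of them (32.8% against 37.4% of all), a TATA box in 2 (3.45% against 13.6%) and the cyclic AMP response element in 1 (1.72% against 1.79%). A match describes the letters in the window and does not show a bound site.

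Total counts ran from 2306470 to 15974543 per neuron sample, with sample medians of 54532 to 210874 counts per cell, and animal 1 was the shallowest. The sections held 8436518 and 6389042 counts. Levels are given as CPM, in which the counts of every gene in a sum of cells or spots are scaled to the same total. They are compared across clusters for 1 gene at a time, because gene length was not corrected for. Over the 11 samples, without regard to cell class, the core genes varied little: Snap25 ranged from 4249 to 6112 CPM with a median of 5230, and Cplx1 from 991 to 1212 with a median of 1084. Cplx2 varied more, from 196 to 362 CPM with a median of 241.

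Cells were clustered without the vesicle fusion genes, so that these genes did not shape the clusters, and 12 clusters were found, numbered by size. Clusters 1 to 9 (38 to 133 cells) entered the comparison. Clusters 10 to 12 (24, 11 and 11 cells) had too few cells per animal. For vesicle fusion genes, the highest cluster and the other clusters are therefore taken among clusters 1 to 9. A marker was said to lead a cluster when 25% or more of the cells there had a count for it and its level exceeded the mean of the remaining clusters by 1 or more on the log2 scale. Cluster 4 led in all 4 markers of layer 6 intratelencephalic neurons (Osr1, Oprk1, Car12, Penk) and cluster 5 in all 4 of layer 6 corticothalamic neurons (Foxp2, Tle4, Rprm, Crym), and they are called layer 6 IT-like and layer 6 corticothalamic-like. Clusters 3 and 8 led in all 4 markers of layer 5 extratelencephalic neurons, the deep cells that project out of the cortex (Fezf2, Bcl11b, Parm1, Chst8), and are called layer 5 ET-like. Crym, a marker of the corticothalamic list, was also among the 10 leading genes of cluster 3. Clusters 1, 7 and 9 had Calb1 and Ddit4l among their leading genes, cluster 2 had Thsd7a, Pygm and Hsd11b1, and cluster 6, which led in 3 of the 4 layer 5 extratelencephalic markers, had Ptprm, Aldh1l1 and Il1rapl2. These stayed unnamed. All 76 cells of cluster 3 came from the posterior dissection and all but 2 of them from animals 1 and 2, and the cells of cluster 9 were shallow, with a median of 77922 counts. The markers of inhibitory neurons summed to 0.837 to 1.87 CPM per animal. The 5 oligodendrocyte markers summed to 44.7 CPM in cluster 9 and up to 218 CPM in cluster 1, and their part in the results was not tested.

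Sums per animal were used to set each cluster against the average log level of the rest. Calling a gene required an adjusted p (Benjamini-Hochberg over all genes, edgeR's quasi-likelihood test) under 0.05 and a log2 fold change of 1 or more in size. Of 55 vesicle fusion genes tested, 16 were called in at least 1 cluster (29.1%), against 17.6% of all 13419 genes tested. Cluster 1 had 3 of the genes called (1.53% of all genes), cluster 2 had 6 (6.83%), cluster 3 had 5 (2.56%) and cluster 4 had 5 (4.53%). Cluster 5 had 3 called (5.03%), cluster 6 had 2 (1.5%), cluster 7 had 6 (3.45%), cluster 8 had 8 (3.88%) and cluster 9 had 7 (3.48%). Calls fell in the synaptotagmins (7 of 15), both complexins, the priming and active zone genes (2 of 8: Rims3 and Unc13c), the syntaxin-binding proteins (2 of 7: Stxbp2 and Stxbp6), the vesicle SNAREs (2 of 5: Vamp1 and Vamp7-ps) and the plasma membrane syntaxins (1 of 5: Stx1a). Of the 4 SNAP proteins and the 8 endosomal, Golgi and ER syntaxins, none was called by edgeR. Of the SNAP proteins, Snap25 and Snap47 passed the adjusted p alone in at least 1 cluster. Without the minimum fold change, 27 of the 55 genes passed, against 24.4% of all genes. In 6 of the 16 genes, at least 1 cluster held 3 counts or fewer, so that their fitted fold change depends on a prior count and only levels and adjusted p-values are given for them. Each p-value rests on the spread that remains between sums once cluster and animal are fitted. That spread is pooled over all clusters, so it does not measure the 2 or 3 animals of 1 cluster alone.

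**Figure D1:**
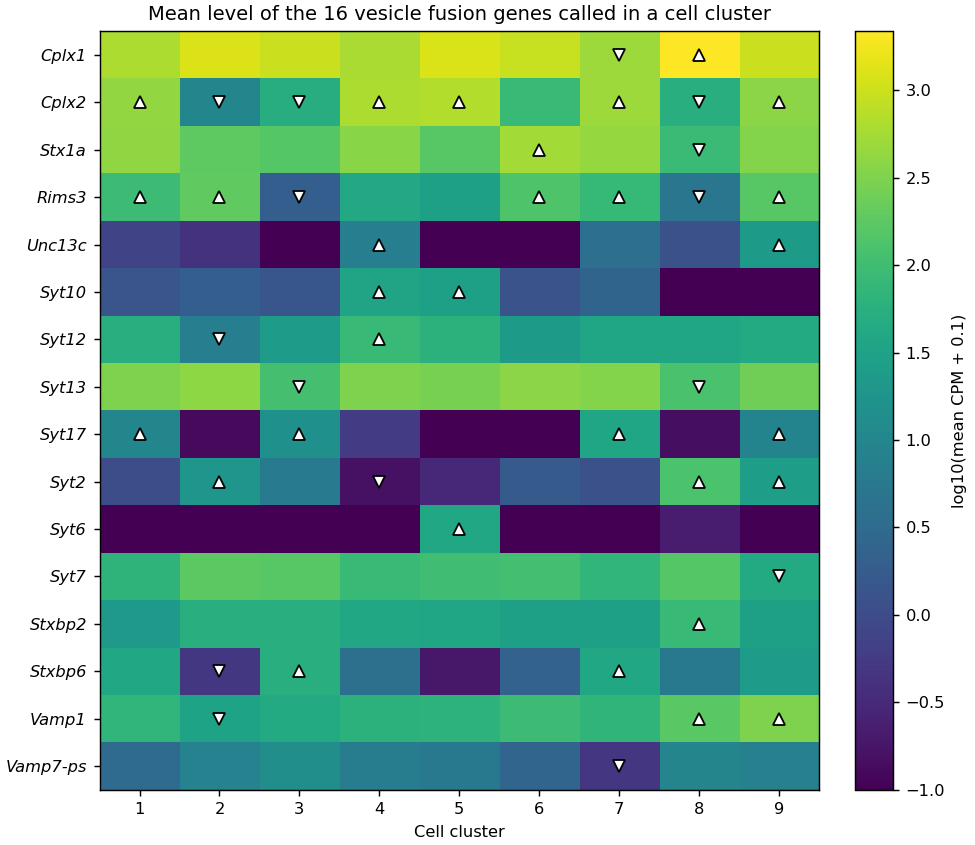
Mean level of the 16 called genes (rows, grouped by role) in cell clusters 1 to 9 (columns), as log10(mean CPM + 0.1) in colour, with a triangle pointing up or down where the gene was called higher or lower than the other clusters. Cplx2 and Rims3 carry triangles in both directions across most clusters, while Syt6 is bright in cluster 5 alone.

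The complexin Cplx2 separated the clusters most often, with 8 of its 9 cluster comparisons called. It was higher in clusters 1, 4, 5, 7 and 9 and lower in clusters 2, 3 and 8, each against the other clusters. In the layer 6 corticothalamic-like cluster 5 it stood at 805, 598 and 630 CPM in animals 1, 2 and 3, and in the layer 6 IT-like cluster 4 at 838, 521 and 581 CPM. In cluster 2 it stood at 9.82, 17.6 and 2.17 CPM. Sorted by Cplx2 level itself, clusters 1, 4, 5, 7 and 9 (322 to 838 CPM over animals) stood above clusters 2, 3, 6 and 8 (2.17 to 84.8 CPM). These sets were formed from the same values, so their separation describes the levels and is no test. The log2 fold change was 2.29 ± 0.23 (SE) for cluster 5 (adjusted p = 1.3e-06, edgeR), 2.20 ± 0.23 for cluster 4 (2.8e-06), 1.78 ± 0.23 for cluster 7 (6.17e-05), 1.73 ± 0.28 for cluster 1 (0.00113) and 1.56 ± 0.29 for cluster 9 (0.00328). It was -4.60 ± 0.39 in cluster 2 (8.7e-08), -2.09 ± 0.39 in cluster 3 (0.0034) and -1.93 ± 0.32 in cluster 8 (0.000632). In cluster 6 Cplx2 stood at 80.7 and 84.8 CPM and was not called (log2 fold change -0.93, adjusted p = 0.284). The call in cluster 3 was lost with sums per sample (adjusted p = 0.26) and with sums of at least 20 cells (0.103), and that in cluster 9 without animal 1 (0.0539).

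Shares of cells holding a Cplx2 count, another view of the same counts, set mainly cluster 2 apart. After each cell was thinned to 54512 counts, which left out 77 shallower cells, 11.3% of cluster 2 cells held a Cplx2 count (13 of 115, exact 95% interval 6.16 to 18.6%), against 100% of the 64 cells of cluster 4 and of the 54 of cluster 5. Clusters 3 and 8 were between, each at 66.7%, and so was cluster 6, at 74.6%. Without thinning the shares were 19.7% in cluster 2, 76.3% in cluster 3 and 92.3% in cluster 8. Intervals cover counting error only.

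Cplx1, the other major complexin of forebrain, was measured at high levels in every cluster and differed less. It was highest in the layer 5 ET-like cluster 8, at 2246, 2147 and 2127 CPM in animals 1, 2 and 3 (mean 2173 ± 63.5, SD, n = 3), against 891 in the other clusters. The log2 fold change was 1.37 ± 0.14 (adjusted p = 2.01e-06, edgeR), higher in 3 of 3 animals. In cluster 7 it stood at 539, 444 and 533 CPM against 1099, a log2 fold change of -1.01 ± 0.16 (adjusted p = 0.000617). The latter lies at the fold threshold: with DESeq2, with other size factors, without the filter on low counts and with sums per sample it came to between -0.99 and -0.88 and was no longer called. The share of Cplx1 in the counts of both complexins was 99.2% ± 0.589 (SD, n = 3) in cluster 2, 97.7% ± 0.884 in cluster 8, 94.8% ± 1.71 (n = 2) in cluster 3 and 91.7% ± 1.16 (n = 2) in cluster 6. It was nearer to even elsewhere: cluster 4 stood at 48.9% ± 10.6 (n = 3), cluster 7 at 50.5% ± 5.71, cluster 1 at 59.2% ± 6.08 (n = 2), cluster 5 at 63.9% ± 8.42 (n = 3) and cluster 9 at 70.8% ± 6.43 (n = 2). These are shares of counts and not of molecules, since the transcripts differ in length.

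**Figure D2:**
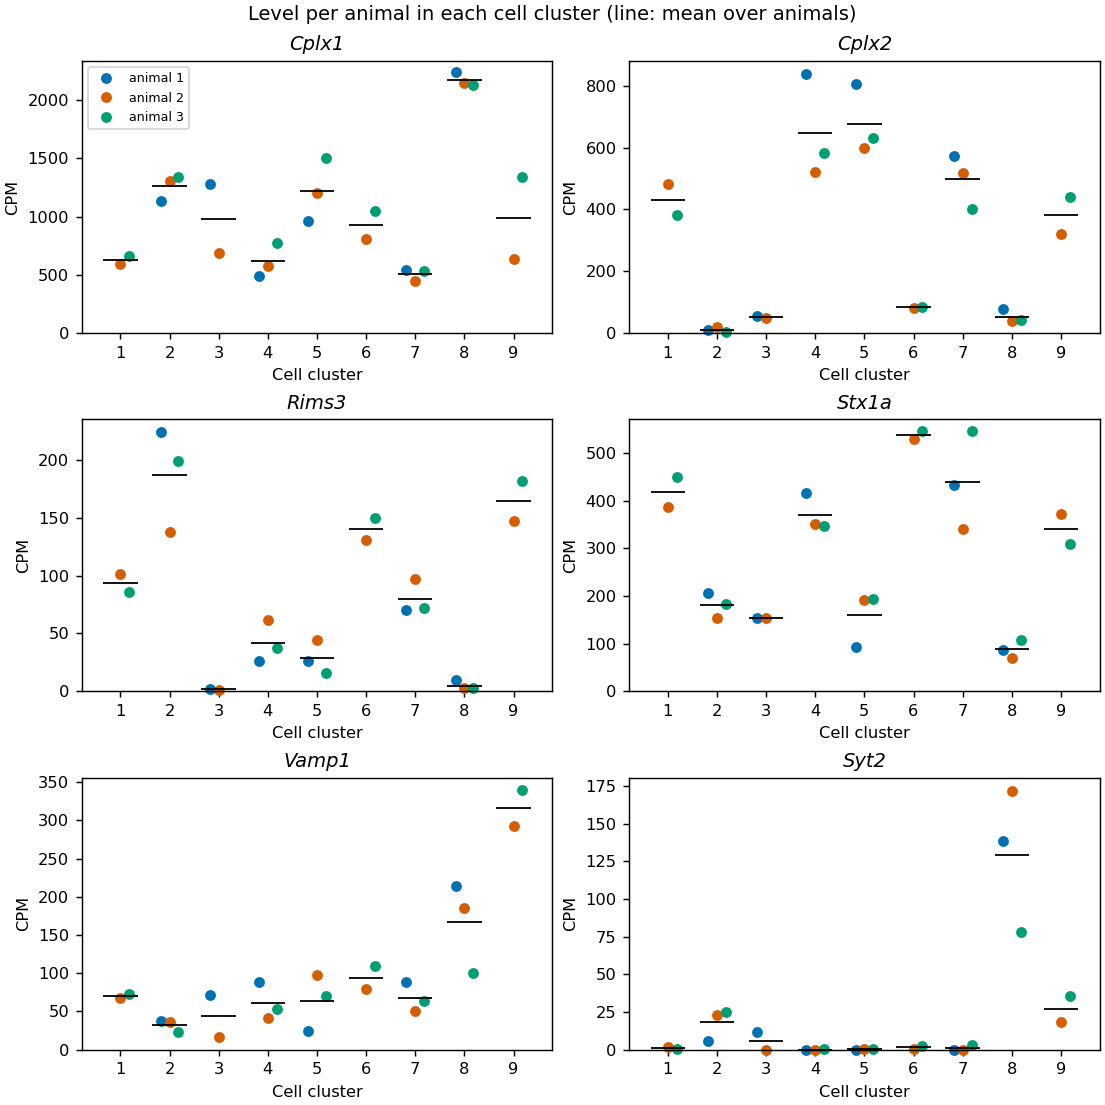
Level in CPM (vertical axis, from 0, a scale for each gene) of 6 vesicle fusion genes in cell clusters 1 to 9, with 1 point per animal and a line at the mean. Cplx2 points of clusters 2, 3, 6 and 8 lie near the axis, while Syt2 is high in cluster 8, at 78.1 to 172 CPM.

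Among priming and active zone genes, Rims3, a short RIM protein that lacks the Rab-binding part of the longer forms, was called in 7 of 9 clusters. It stood at 224, 138 and 199 CPM in cluster 2 in animals 1, 2 and 3, and at 131 and 150 CPM in cluster 6 and 147 and 181 CPM in cluster 9 in animals 2 and 3. In the layer 5 ET-like clusters it stood at 2.13 and 1.56 CPM (cluster 3, animals 1 and 2) and at 9.42, 2.55 and 2.95 CPM (cluster 8). None of these values of the ET-like clusters reached the lowest of clusters 2, 6 and 9, which were picked by their Rims3 level. The log2 fold change was 2.50 ± 0.25 in cluster 2 (adjusted p = 7.38e-07, edgeR), 2.33 ± 0.30 in cluster 9 (0.000173) and 2.08 ± 0.30 in cluster 6 (0.00039), and -5.12 ± 0.57 in cluster 3 (1.44e-05) and -3.81 ± 0.43 in cluster 8 (8.85e-06). In clusters 1 and 7 it was called higher as well (1.40 ± 0.31 and 1.10 ± 0.27), while the mean levels, 93.7 and 79.5 CPM, differed little from the 81.0 and 82.8 CPM of the others. Without animal 1 those 2 calls were lost (adjusted p = 0.246 and 0.334), and that of cluster 7 without animal 2 (0.0559). Unc13c, a minor Unc13 form in cortex, was called in cluster 9, at 14.7 and 31.7 CPM against a mean of 1.60 (adjusted p = 0.00601), and in cluster 4, at 2.03, 12.4 and 6.5 CPM against 3.63 (0.0169, lost without animal 1, without animal 3 and with DESeq2). With all cells pooled, Unc13c stood at 22.0 CPM in cluster 9 and at 43.9 CPM in the untested cluster 12 (11 cells). Unc13a, the main form in cortical synapses, ranged over cluster means from 126 to 215 CPM and Rims1 from 82.4 to 191 CPM. Neither was called. Rims1 took 40.2% ± 8.43 (SD, n = 2) of the counts of Rims1 and Rims2 in cluster 3 and 71% ± 6.65 (n = 2) in cluster 9. In cells thinned to 1 total the share in cluster 9 was 61.7% ± 16.2 (n = 2) and that in cluster 4 was 64.2% ± 4.33 (n = 2).

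Syntaxin 1a, the plasma membrane SNARE of synapses, was higher in cluster 6, at 529 and 545 CPM in animals 2 and 3 against 269, and lower in the layer 5 ET-like cluster 8, at 87.6, 70.5 and 108 CPM against 325. All values of cluster 8 lay below those of cluster 6. The log2 fold change was 1.17 ± 0.18 in cluster 6 (adjusted p = 0.000592, edgeR) and -1.74 ± 0.19 in cluster 8 (5.77e-06). With sums per sample the value in cluster 6 was 0.94, under the fold threshold.

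Among vesicle SNAREs, Vamp2, the main synaptic form in forebrain, was even across clusters, with means from 230 to 335 CPM and no call. Its relative Vamp1 was higher in cluster 9, at 293 and 339 CPM in animals 2 and 3 against 75.1, a log2 fold change of 2.39 ± 0.33 (adjusted p = 0.000222, edgeR). In the layer 5 ET-like cluster 8 it stood at 214, 185 and 101 CPM against 93.8, a log2 fold change of 1.12 ± 0.30 (0.0251) with 2 of 3 animals higher, and without animal 1 the value was 0.91. In cluster 2 it stood at 38.0, 35.8 and 23.4 CPM against 111, a log2 fold change of -1.51 ± 0.36 (0.00869), a call lost without animal 2 (0.086) and without animal 3 (0.384). Vamp1 took 56.9% ± 3.84 (SD, n = 2) of the counts of both genes in cluster 9 and 37.5% ± 8.21 (n = 3) in cluster 8, against 8.81% ± 2.13 (n = 3) in cluster 2. Vamp7-ps was called lower in cluster 7 on 5 counts there (0.377 CPM against 7.13, adjusted p = 0.0465), a call lost without any 1 animal (0.13 to 0.284).

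**Figure D3:**
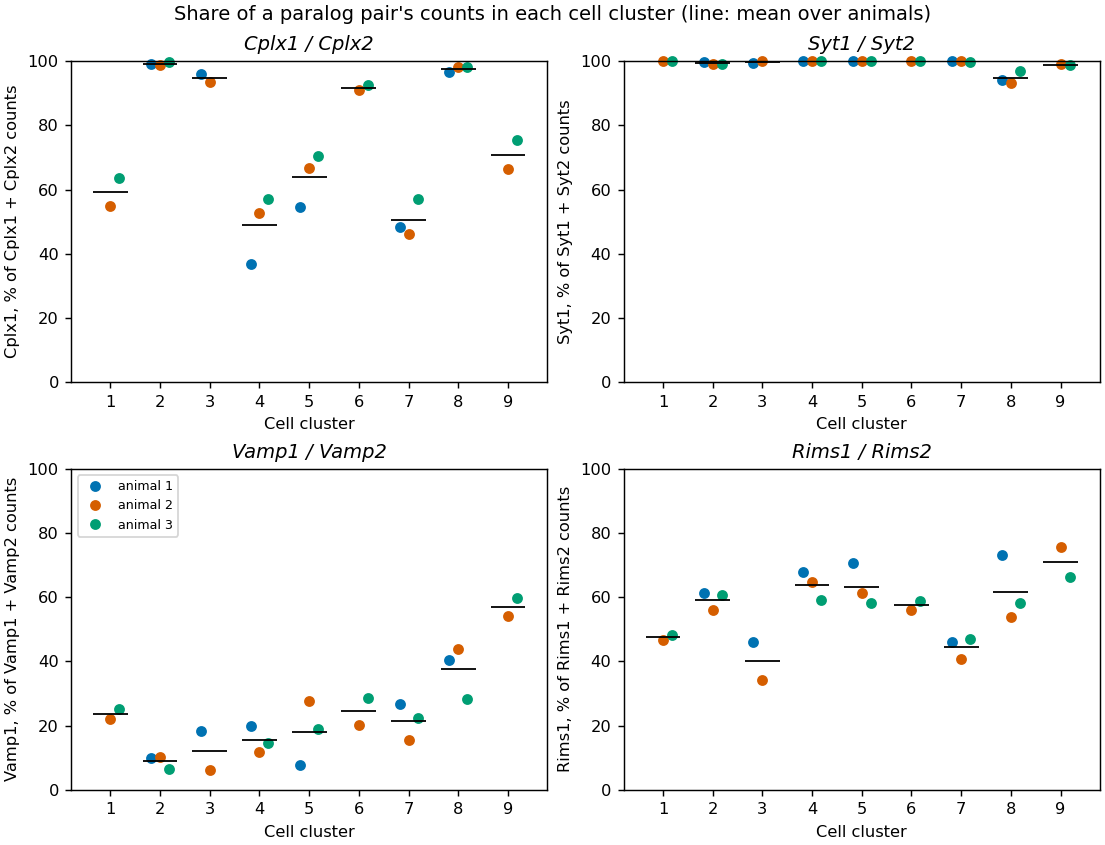
Share of counts (percent, 0 to 100) taken by the first gene of 4 related pairs in cell clusters 1 to 9, with 1 point per animal and a line at the mean. Cplx1 lies above 90% in clusters 2, 3, 6 and 8 and lower elsewhere, Syt1 is lowest in cluster 8, at 94.8%, and Vamp1 reaches 56.9% in cluster 9.

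Of the calcium sensors, Syt1, the main sensor for fast release in forebrain, was even, with cluster means from 2137 to 3152 CPM and no call. Syt2 is a fast sensor best known from the hindbrain and from inhibitory cells. Among clusters 1 to 9 it was concentrated in the layer 5 ET-like cluster 8. It stood there at 138, 172 and 78.1 CPM in animals 1, 2 and 3. The others had a mean of 6.87 CPM (adjusted p = 2.52e-06, edgeR). With all cells pooled, cluster 8 stood at 119 CPM and the untested cluster 12 (11 cells) at 150 CPM. The other ET-like cluster, cluster 3, held 11.7 CPM in animal 1 and 0 in animal 2. Set directly against cluster 3, Syt2 in cluster 8 was called by neither edgeR (adjusted p = 0.295) nor DESeq2. Thinned to equal depth, 65.1% of cluster 8 cells held a Syt2 count (41 of 63) and 11.1% of cluster 3 cells (8 of 72), and without thinning 76.9% and 11.8%. In cluster 4 there was 1 count against 2451 in the other clusters (adjusted p = 0.0423, edgeR). The ratio of others to cluster 4 was 287, with an exact 95% counting interval of 51.5 to 11342. This interval takes each count as independent and leaves out the spread between cells and animals. The call in cluster 4 was lost without animal 2 and without animal 3. Syt2 was also called in cluster 2, at 5.98, 23.4 and 25.1 CPM against 20.8, and in cluster 9, at 18.1 and 35.9 CPM against 19.7. These 2 calls compare log levels, in which the clusters near 0 weigh heavily, and both fell short with DESeq2 (0.0648 and 0.0774), the one in cluster 2 also without animal 3 (0.0759). Even in cluster 8 Syt1 took 94.8% ± 1.90 (SD, n = 3) of the counts of Syt1 and Syt2.

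Syt6, a synaptotagmin known from the acrosome reaction of sperm, was found almost solely in the layer 6 corticothalamic-like cluster 5. It stood there at 29.4, 40.7 and 50.2 CPM, with 309 counts against 2 in the 8 other clusters together. The ratio was 2209, with an exact 95% counting interval of 606 to 18325. That interval takes each count as independent and leaves out the spread between cells and animals. The adjusted p was 7.08e-05 with edgeR and 0.147 with DESeq2. Syt6 passed the filter on low counts through cluster 5 alone, so these p-values add no support beyond the counts. Among thinned cells 42.6% of cluster 5 held a count (23 of 54), against 0 of 125 in cluster 1, which allows a share of up to 2.4% by a floor of 3 counts (exact 95% interval to 2.91%). Syt10, linked to the release of growth factor in olfactory neurons, was high in both layer 6 clusters: 17.2, 67.6 and 15.8 CPM in cluster 4 and 27.7, 38.2 and 20.3 CPM in cluster 5. The others averaged 4.62 and 5.22 CPM (adjusted p = 0.000958 and 0.00111). In clusters 8 and 9 Syt10 had 0 counts. Syt17, a form without a transmembrane anchor, was highest in cluster 7, at 36.5, 49.1 and 25.5 CPM against 4.29 (adjusted p = 4.6e-05). It was called in clusters 1, 3 and 9 too, at means of 9.61, 15 and 9.13 CPM, and had 0 counts in clusters 5 and 6. In cluster 9 its 2 animals stood at 17.6 and 0.690 CPM. The calls in clusters 1 and 9 were lost without animal 1 (0.0518 and 0.0600), that in cluster 1 with DESeq2 (0.0699) and that in cluster 3 in thinned cells (0.0563).

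Syt12, a vesicle synaptotagmin that does not bind calcium, was higher in the layer 6 IT-like cluster 4, at 97.3, 58.5 and 105 CPM against 35.9 (log2 fold change 1.47 ± 0.25, adjusted p = 0.0006, edgeR). In cluster 2 it was lower, at 6.40, 3.71 and 10.7 CPM against 45.9 (-2.64 ± 0.34, 2.09e-05). Syt13, another form that does not bind calcium, was lower in both layer 5 ET-like clusters: 123 and 108 CPM in cluster 3 and 116, 136 and 112 CPM in cluster 8, against 301 in the other clusters of each comparison. Its log2 fold changes were -1.32 ± 0.17 (6.91e-05) and -1.23 ± 0.14 (6.45e-06), with 0 of 2 and 0 of 3 animals above the others. Syt7, the slow high-affinity sensor, was lower in the shallow cluster 9, at 67.4 and 22.8 CPM against 116 (-1.28 ± 0.27, adjusted p = 0.00748, edgeR). With all cells pooled, Syt7 stood at 47.4 CPM in cluster 9, 60.6 CPM in cluster 1 and 63.2 CPM in cluster 7. Clusters 1 and 7 were not called.

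Of the syntaxin-binding proteins, 2 were called. Stxbp2 (Munc18-2), best known from secretory cells outside the brain, was higher in cluster 8, at 116, 66.4 and 70.8 CPM against 36.8 (log2 fold change 1.18 ± 0.22, adjusted p = 0.0017, edgeR), a call lost without animal 2 (0.114), without animal 3 (0.0552) and in thinned cells (0.0942). With all cells pooled, Stxbp2 stood at 71.7 CPM in cluster 8 and at 139 CPM in the untested cluster 12 (11 cells). Stxbp6 (amisyn) binds SNARE bundles in place of a VAMP. It was called higher in cluster 7, at 42.4, 35 and 39.6 CPM against 15.9 (adjusted p = 0.00645, edgeR). It was also called higher in cluster 3, at 25.6 and 78.4 CPM against 14.3 (0.0374). With all cells pooled, Stxbp6 stood at 58.4 CPM in cluster 3, 38.7 CPM in cluster 7 and 39.8 CPM in cluster 1, which was not called. The untested cluster 10 (24 cells) stood highest at 87.6 CPM, with Stxbp6 among its 10 leading genes. The call in cluster 7 was lost without animal 1 (0.0614) and that in cluster 3 with DESeq2 (0.0505). In cluster 2 it stood at 0.427, 0.674 and 0.0866 CPM (adjusted p = 0.0417, lost without any 1 animal). In cluster 8 animal 2 stood at 16.7 CPM while animal 1 had 0 and animal 3 had 0.128.

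SNAP-25, the plasma membrane SNARE encoded by Snap25, fell outside the calls but was lowest in cluster 3, at 3531 and 2861 CPM in animals 1 and 2 against 5668 in the others. This log2 fold change of -0.76 ± 0.07 passed the adjusted p (2.13e-06, edgeR) and not the minimum fold. Snap47, a relative without membrane anchor, was highest in cluster 2, at a mean of 3029 CPM against 1999 (0.59 ± 0.07, 6.14e-06). Snap23 and Snap29, found in most tissues, were low, at 2.30 to 15 and 2.83 to 21.2 CPM over cluster means.

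The layer 5 ET-like clusters 3 and 8 were compared directly, a comparison added after the data had been seen. None of the 55 genes was called by edgeR, against 0.201% of all genes, while 11 had an unadjusted p under 0.05, as did 6.77% of all genes. DESeq2 called 3 of the 55, against 0.76% of all 13419 genes. Cplx1 was higher in cluster 8 by a log2 fold change of 1.07 ± 0.23 (edgeR adjusted p = 0.0582, DESeq2 6.84e-05), and Vamp1 by 2.13 ± 0.52 (0.116 and 0.00157). Snap25 was higher by 0.46 ± 0.08 (edgeR 0.0166), under the minimum fold. For Syt17, the third of the DESeq2 calls, cluster 8 held 1 count against 128 in cluster 3 (edgeR 0.089, DESeq2 0.00868). Cluster 3 held 2 animals and posterior cells alone, so cluster and dissection level cannot be told apart in it.

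Another list held other genes of the release pathway: NSF and its attachment proteins, synaptic vesicle proteins such as the synapsins and Sv2 forms, active zone scaffolds such as Bsn and Pclo, Rab3 forms with their effectors, tandem C2-domain proteins such as Doc2 and Sytl forms, further SNAREs of the Golgi and ER, and endocytosis genes such as dynamins. Of its 52 genes tested, 14 were called in at least 1 cluster by edgeR, against 17.6% of all genes. All 14 were higher in some cluster and 8 of them also lower in another. Rab3c, a small GTPase of synaptic vesicles, was higher in both layer 5 ET-like clusters (log2 fold change 2.45 ± 0.19 in cluster 3 and 1.81 ± 0.16 in cluster 8; adjusted p = 2.56e-07 and 5.98e-07, edgeR) and lower in cluster 5 (-2.14 ± 0.23, 3.85e-06). Rph3a, a Rab3 effector, was lower in cluster 2 (-2.33 ± 0.26, 2.96e-06) and higher in cluster 5 (1.65 ± 0.19, 8.61e-06). Cadps2, a protein of dense-core vesicle priming, was higher in cluster 2 (2.47 ± 0.27, 3.1e-06) and lower in cluster 7 (-3.12 ± 0.46, 0.000211).

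Along the dissection axis no vesicle fusion gene differed beyond the threshold. With all neurons summed per animal and level, edgeR called 0 of 55 genes posterior against anterior (0.0855% of all 14029 genes) and 0 of 55 medium against anterior (0.00713%). Both comparisons use the same anterior sums. At an unadjusted p under 0.05 there were 4 and 3 genes (5.89% and 4.23% of all genes were at that p). DESeq2 also called 0 in each, against 0.791% and 0.0927% of all genes. It had 6 and 5 of the 55 genes at that p, against 7.78% and 6.11% of all genes. Syt13 stood at 227, 189 and 299 CPM in posterior sums of animals 1, 2 and 3 and at 355, 318 and 359 CPM in anterior sums, so the groups did not overlap, with a log2 fold change of -0.55 ± 0.15 (adjusted p = 0.489). Stx1a stood at 145, 221 and 280 CPM in medium sums and at 355, 270 and 405 CPM in anterior sums (-0.69 ± 0.19, 0.932). The medium value was below the anterior one in each of the 3 animals, while the groups overlapped across animals. Within clusters, with animal and cluster in the model, 0 of 53 genes were called posterior against anterior by edgeR (0.00772% of 12950 genes). By edgeR 7 had an unadjusted p under 0.05 (7.74% of all genes had one). DESeq2 called 0, against 0.734% of all genes, and had 9 at that p, against 11.2% of all genes. Cplx1 had mean levels of 987 CPM in anterior and 794 CPM in posterior sums (-0.43 ± 0.10, adjusted p = 0.206). Posterior and anterior sums held clusters in different proportions, and cluster 3 was posterior alone.

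The sections allowed the same genes to be followed in tissue. Spots were clustered without the vesicle fusion genes after centring each gene within its section, and 9 zones with at least 10 spots in both sections were compared. They are described by leading genes: Nnat and Nr4a2 in zone 1, Tshz2, Hsd11b1 and Slc17a6 in zone 2, Dlk1 and Calb2 in zone 3, Stard8 and Cux2 in zone 4, Foxp2 and Ccn2 in zone 5, Deptor and Fezf2 in zone 6, Ptgds and Gfap in zone 7, Rspo1 and Rorb in zone 8, and haemoglobin genes in zone 9. In tissue, fewer cells of a type and less RNA per cell cannot be told apart. All 5 oligodendrocyte markers led in zone 5 and all 4 astrocyte markers in zone 7. In zone 2 the oligodendrocyte markers Mbp, Mog and Mobp (3 of 5), the astrocyte marker Gfap and the haemoglobin genes Hba-a1 and Hbb-bs led as well, and Dcn, a marker of meningeal cells, led in zone 3. The part of these cells in the values of the zones was not tested. Of 54 genes tested, 10 were called in at least 1 zone (18.5%), against 12.2% of all 10656 genes. By zone, the genes called numbered 5 in zone 1 (1.43% of all genes), 4 in zone 2 (2.53%), 5 in zone 3 (5.01%), 1 in zone 4 (1.95%), 4 in zone 5 (3.07%), 1 in zone 6 (0.657%), 1 in zone 7 (2.77%), 2 in zone 8 (1.75%) and 0 in zone 9 (0.0657%). In zone 9, 5 genes had an unadjusted p under 0.05 by edgeR, against 5.08% of all genes. DESeq2 also called 0 there, against 0.0657% of all genes, and had 2 at that p, against 1.88%. Each zone rests on 2 sections.

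Syt17 was higher in zone 3, at 95.8 and 119 CPM in S4 and S8 against 50.5, and in zone 1, at 93.7 and 109 CPM against 51.3. It was lower in zone 2, at 10.6 and 12.8 CPM against 62.5. Both sections kept this order without overlap between zones 1 and 3 on one side and zone 2 on the other. The log2 fold change was 1.37 ± 0.15 in zone 3 (adjusted p = 2.04e-09, edgeR), 1.29 ± 0.15 in zone 1 (4.24e-08), -2.21 ± 0.26 in zone 2 (3.33e-08) and -1.05 ± 0.22 in zone 5 (0.000587). In section S4 alone, with no test, the value in zone 5 was -0.65.

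Syt2 showed another layout: it was higher in zone 2 (32.7 and 54.8 CPM), zone 6 (28.2 and 39.2 CPM) and zone 8 (26.3 and 41.1 CPM) and lower in zone 1 (3.35 and 3.53 CPM) and zone 3 (3.34 and 3.19 CPM). Its log2 fold changes were 1.69 ± 0.23 (adjusted p = 7.36e-07, edgeR), 1.27 ± 0.26 (0.00279) and 1.27 ± 0.28 (0.00281), and -2.33 ± 0.42 (0.000204) and -2.44 ± 0.44 (6.5e-05). Rims3 was higher in zone 8, at 164 and 219 CPM against 78.5 (1.41 ± 0.14, 1.05e-09), and lower in zone 1 (-1.16 ± 0.18, 1.48e-05) and zone 3 (-1.48 ± 0.19, 1.29e-07). Vamp1 was higher in zone 2, at 120 and 167 CPM against 60.5 (1.29 ± 0.15, 5.26e-08), and lower in zone 1, at 29.3 and 29.4 CPM against 74.8 (-1.26 ± 0.22, 9.26e-05). The call for Syt2 in zone 6 was lost with DESeq2 (0.0571), and in section S4 alone its log2 difference in zone 8 was 0.80.

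Syt6 stood at 36.0 and 30.8 CPM in zone 5, the zone led by Foxp2, against 4.21 in the others (adjusted p = 6.72e-10, edgeR). The next highest zone, zone 9, stood at 9.27 and 12.8 CPM. Stxbp6 was higher in zone 4, led by Stard8 and Cux2, at 116 and 127 CPM against 63.5 (log2 fold change 1.00 ± 0.14, 2.29e-06), and lower in zone 5, at 28.8 and 33.9 CPM against 74.8 (-1.19 ± 0.20, 2.1e-05). Unc13c stood at 35.9 and 25.6 CPM in zone 2 (1.25 ± 0.28, 0.00185), at 22.3 and 34.1 CPM in zone 3 (1.09 ± 0.29, 0.00658) and at 5.14 and 7.42 CPM in zone 5 (-1.32 ± 0.42, 0.0463). Its calls in zones 3 and 5 were lost with DESeq2 (0.0896 and 0.229), and in section S8 alone its log2 difference in zone 2 was 0.75. Syt9 was called in zone 3 (12.2 and 17 CPM against 6.66, 0.0177; DESeq2 0.163) and Vamp3, a widely expressed VAMP, in zone 1 (10.9 and 9.41 CPM against 22.0, 0.0301; DESeq2 0.225). Vamp8, a VAMP of endosomes and secretory cells, was called in zone 7 (22.3 and 42.9 CPM against 12.3, 1.34 ± 0.38, 0.0223), with a log2 difference of 0.61 in section S4 alone. In zone 7 all 4 astrocyte markers, the microglial marker C1qa (1 of 4) and the endothelial marker Cldn5 (1 of 4) led, and their part in this value was not tested.

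**Figure D4:**
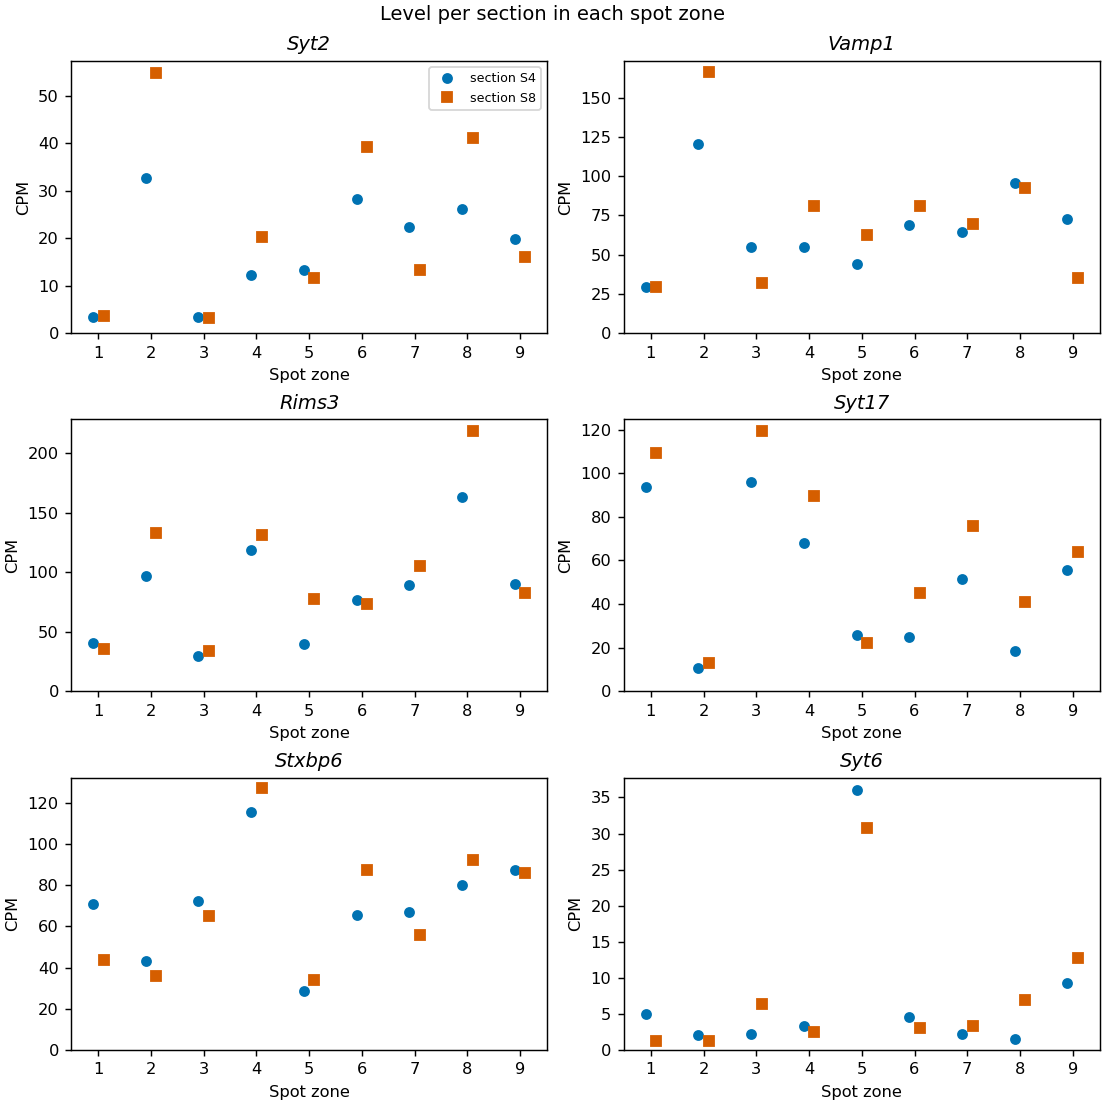
Level in CPM (vertical axis, from 0, a scale for each gene) of 6 vesicle fusion genes in spot zones 1 to 9, with 1 point for section S4 and 1 for S8. Syt6 stands out in zone 5, at 36.0 and 30.8 CPM, and Syt17 is lowest in zone 2 in both sections.

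Neither complexin was called in the sections, although both passed the adjusted p. Cplx1 stood at 480 and 632 CPM in zone 2 and at 500 and 693 CPM in zone 6, with log2 fold changes of 0.60 ± 0.10 and 0.70 ± 0.10 (adjusted p = 1.97e-05 and 8.47e-06, edgeR). Cplx2 stood at 222 and 287 CPM in zone 2 and at 449 and 1000 CPM in zone 3 (-0.80 ± 0.13 and 0.80 ± 0.10, 9.19e-06 and 1.11e-07), with section S8 above S4 in every zone. The share of Cplx1 in the counts of both was 68.4 and 68.8% in zone 2 and 35.8 and 23.6% in zone 3. Stx1a was highest in zone 8, at 296 and 376 CPM (0.91 ± 0.11, 1.06e-07), also under the minimum fold. Snap25 ranged from 1733 to 3613 CPM over zone means, Syt1 from 735 to 1146, Vamp2 from 821 to 1055, Unc13a from 98.4 to 182 and Rims1 from 67.7 to 144. Of 49 genes tested from the list of other pathway genes, 8 were called in at least 1 zone by edgeR, against 12.2% of all genes, 7 of them higher in some zone and 4 lower.

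Levels in neurons and in sections were set side by side for the 55 genes with more than 3 counts in each. The assays differ in cells, chemistry and annotation, whose parts cannot be told apart, so these are descriptions without a test. The median log2 ratio of neurons over sections was 0.33 for these genes and 0.13 for all 11620 such genes, and 8 of the 55 differed by more than 2 on that scale in either direction, against 12% of all genes. Snap91 stood at 22.4, 34.1 and 32.6 CPM in the neurons of animals 1, 2 and 3 and at 312 and 244 CPM in sections S4 and S8. Stxbp5l (tomosyn-2) had the opposite order, at 90.4, 121 and 143 CPM in neurons and 13 and 13 CPM in sections, and so did Snap47, at 2637, 2227 and 1987 CPM against 355 and 332 CPM. Vamp2 stood at 326, 281 and 267 CPM in neurons and at 968 and 934 CPM in sections. Vamp8 was near 0 in neurons, with 41 counts in all, and stood at 14.1 and 12.2 CPM in sections.

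**Figure D5:**
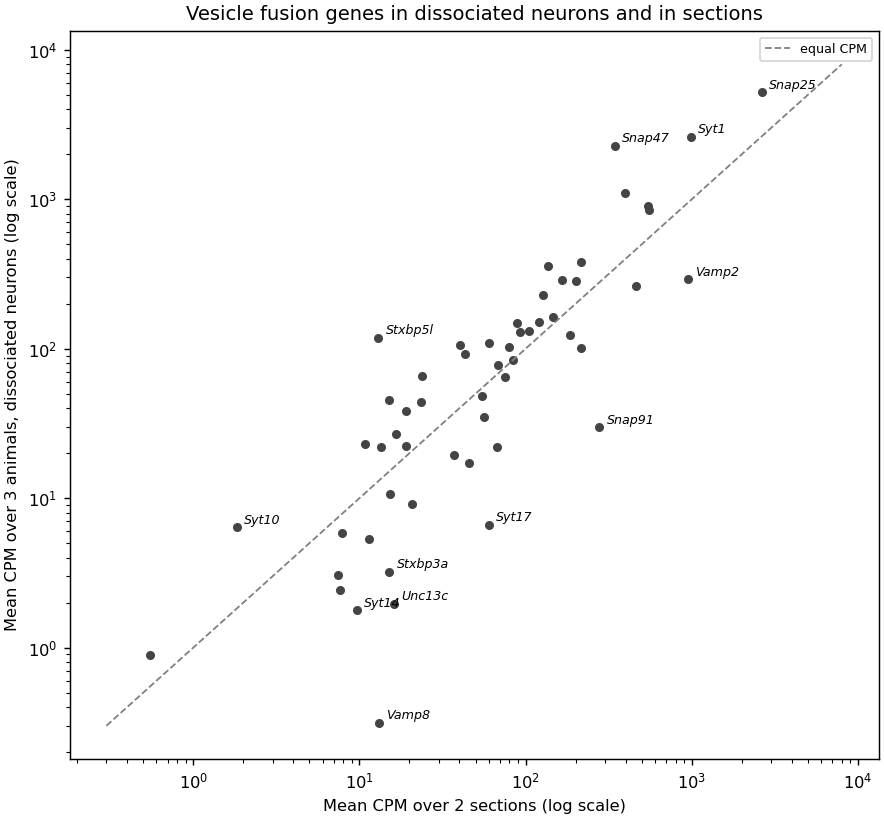
Mean level of each vesicle fusion gene in sections (horizontal axis, CPM, log scale) and in dissociated neurons (vertical axis, CPM, log scale), with a dashed line at equal CPM. Stxbp5l and Snap47 lie above the line and Snap91, Syt17, Unc13c and Vamp8 below it.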

How the data were processed

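The deposited counts, 1 per gene in every cell or spot, hold whole numbers that the authors left unscaled, judged from the values. The submitters' processing notes name Seurat, Space Ranger and the builds NCBIM37 and mm10 without their roles, and the aligner, cell filters and whether reads or molecules were counted are not given in the sources used here. The authors' deposited total count per spot equalled the sum of the table for 1973 of 1973 spots. The animal of each cell came from the deposited table of cells and its dissection level from the column name per the file headers; 0 columns lacked a sample. Which labelled section S4 and S8 are was not used. They shared 162 spot barcodes, which are slide positions.

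Clustering used scanpy 1.11.5 (10000 counts per cell, log, 2000 variable genes, 30 components, 15 neighbours, Leiden resolution 1, seed 1), with the vesicle fusion genes left out. No doublet caller was run. The marker rule was set after seeing the data. Sums were taken over each animal and cluster (at least 10 cells, at least 2 animals) or per section and zone. They were compared by the quasi-likelihood test of edgeR 4.0.16 under R 4.3.3, after filterByExpr and TMM scaling, with the animal or section as a block. Of these steps, only the edgeR fit of cell clusters was run on simulated counts, drawn from the same kind of model. SEs are the log2 fold change over the square root of F. DESeq2 1.42.0 was an alternative. Animals pair the clusters because 1 animal gave several. Named are all called genes (at most 25) and core release genes, some of which are not reported here. The genes and lists were chosen with earlier results of these data known. Promoters came from RefSeq, GRCm38.p6.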

Additional observations from a re-analysis of the deposited data

How the results depend on the processing

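The 16 genes called in at least 1 cell cluster became 27 of 55 with no minimum fold change, against 3274 of all 13419 genes. The 10 called in at least 1 spot zone became 26 of 54, against 3125 of all 10656 genes. Clustering spots without centring left 3 regions and 1 called gene of 40 tested, against 189 of all 6934 genes. Leaving out animal 1, 2 or 3 gave 0 vesicle fusion genes in each dissection comparison. In cell clusters it gave 16 of 55, 12 of 52 and 13 of 54. Of all genes, the fits in cell clusters called 1711 of 13439, 1245 of 12247 and 1368 of 12276. Only 8, 5 and 6 clusters were left in these fits, so calls in the clusters that dropped out could not be checked. Without the animal or section as a replicate block the counts were 17 genes in cell clusters (2587 of all 13419) and 9 in zones (1073 of all 10656). Each dissection comparison then had 0. The other alternatives kept counts within 1.5 times, from 11 genes with sums per sample (5 clusters left) to 17 with thinned cells. Of all genes, those 2 fits called 1280 of 13318 and 2041 of 11782. Added after seeing the data, the fit without cluster 9 called 17 genes (2237 of all 13535). That without zone 7 called 9 (1098 of all 10485). No named fold change reversed. Leaving out 1 section left no residual degrees of freedom, so its fold changes carry no test: of 23 in zones, 14 moved beyond the spread with S4 alone and 7 with S8 alone. With clusters drawn from all genes, the 70 cells of cluster 7 joined cluster 1, so its 6 calls had no counterpart; of the 45 calls in cells 38 held and 1 was lost. Of 45 shares in paralog pairs 4 moved in thinned cells, and of 25 comparable with sums per sample 3 did. Calls of genes near 0 (Stxbp6 in cluster 2, Syt2 in cluster 4, Unc13c in cluster 4, Vamp7-ps in cluster 7) were lost most often. Each cluster rests on 2 or 3 animals and each zone on 2 sections, and 6 of the 16 genes had a cluster with 3 counts or fewer, where a level of 0 is a limit of depth.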
